A study of Mus musculus with 18 samples.

Results

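Interferon-stimulated genes are described here as a list of 37 genes, looked up by symbol among the 29437 genes of one table of read counts from bone marrow stem and progenitor cells. All 37 had a row. The lookup used no measured value, but the list was drawn up with earlier results of these data known. The cells were sorted from 10-week-old mice that were wild type (WT) or Helios null (KO). Helios is the product of Ikzf2 and belongs to the Ikaros proteins, which bind DNA through zinc fingers. All sorted cells were Lin-Sca1+ckit+. LT-HSC, the long-term hematopoietic stem cells, were in addition CD48-CD150+. MPP3 and MPP4 are multipotent progenitors, both CD48+CD150-, with MPP3 sorted as Flt3- and MPP4 as Flt3+. Each of the 6 groups held 3 libraries, and the numbers 1, 2 and 3 of a genotype were taken as its 3 mice, each giving all 3 populations. The sources used here give neither the strain nor the Ikzf2 allele of the KO mice. The comparisons asked whether the level of these genes differed between KO and WT within each population, and how it differed between the populations.

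Interferons bind receptors at the cell surface, and the JAK kinases on those receptors pass the signal on to the nucleus. There it acts through the interferon-stimulated response element, a paired GAAA motif in the promoters of its target genes. The products of those genes sense viral nucleic acid, degrade or block viral RNA, hold virus at membranes and adjust the pathway itself. Hematopoietic stem cells are known to express a set of these genes without infection, and interferon is known to push resting stem cells into cycle.

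The promoters that follow are shown because they hold the letters of that element and because the results below turn on these genes or their families. Promoters of 27 of the 37 genes, 32 windows in all, matched RefSeq entries of GRCm38.p6 by symbol; each window runs from 250 bases before to 50 bases after a start site. Dhx58, Ifi27, Mx1, Mx2, Oas2, Parp14, Parp9, Rtp4, Usp18 and Zbp1 had no entry that matched. Capitals mark the motif, GAAA then any 2 bases then GAAA, or on the other strand TTTC then any 2 bases then TTTC, searched on both strands with overlapping matches allowed.
Isg15, chr4:156200769-156201068, minus strand: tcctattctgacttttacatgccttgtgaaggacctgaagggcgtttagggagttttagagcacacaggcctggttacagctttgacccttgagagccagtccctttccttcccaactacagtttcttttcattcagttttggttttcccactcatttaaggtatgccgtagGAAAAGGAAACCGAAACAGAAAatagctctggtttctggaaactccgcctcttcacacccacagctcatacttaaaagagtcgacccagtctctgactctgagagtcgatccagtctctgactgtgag
Ifit1, chr19:34640639-34640938, plus strand: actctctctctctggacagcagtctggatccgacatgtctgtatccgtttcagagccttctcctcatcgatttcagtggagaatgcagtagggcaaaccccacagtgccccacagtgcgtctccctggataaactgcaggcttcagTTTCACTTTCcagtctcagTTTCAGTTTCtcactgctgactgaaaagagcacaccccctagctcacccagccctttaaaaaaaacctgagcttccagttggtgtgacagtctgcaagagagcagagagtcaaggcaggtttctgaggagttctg
Bst2, chr8:71537423-71537722, minus strand: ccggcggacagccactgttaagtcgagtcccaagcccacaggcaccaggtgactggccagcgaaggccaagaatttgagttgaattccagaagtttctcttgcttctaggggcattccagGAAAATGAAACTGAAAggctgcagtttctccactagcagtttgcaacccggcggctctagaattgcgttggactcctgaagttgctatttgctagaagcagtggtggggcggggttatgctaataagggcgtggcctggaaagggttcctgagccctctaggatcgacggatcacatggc
Trim30a, chr7:104465144-104465443, minus strand: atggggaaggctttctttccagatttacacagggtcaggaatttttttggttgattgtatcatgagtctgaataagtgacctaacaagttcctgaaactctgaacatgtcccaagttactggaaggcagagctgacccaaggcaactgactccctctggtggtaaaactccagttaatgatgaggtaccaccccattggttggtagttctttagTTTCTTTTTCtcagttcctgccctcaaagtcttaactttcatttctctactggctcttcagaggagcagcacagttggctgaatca
Ifih1, chr2:62646206-62646505, minus strand: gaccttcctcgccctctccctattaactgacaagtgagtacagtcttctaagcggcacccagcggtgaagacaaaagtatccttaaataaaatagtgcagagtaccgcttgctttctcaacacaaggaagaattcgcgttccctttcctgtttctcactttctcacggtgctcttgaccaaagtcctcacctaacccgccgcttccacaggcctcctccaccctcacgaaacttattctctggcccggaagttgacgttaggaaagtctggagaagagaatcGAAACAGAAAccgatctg
Gbp2, chr3:142620413-142620712, plus strand: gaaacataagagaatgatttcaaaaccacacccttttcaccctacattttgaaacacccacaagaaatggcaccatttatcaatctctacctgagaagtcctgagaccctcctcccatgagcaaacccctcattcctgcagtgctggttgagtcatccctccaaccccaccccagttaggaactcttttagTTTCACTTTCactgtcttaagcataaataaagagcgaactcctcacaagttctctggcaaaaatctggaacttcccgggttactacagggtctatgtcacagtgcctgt
Isg15 held 3 overlapping matches, Ifit1 and Bst2 held 2 each, and Trim30a, Ifih1 and Gbp2 held 1 each. Of the 27 genes with a promoter, 14 (51.9%) held at least 1 match, against 1079 of all 27025 genes with a promoter (3.99%). A match is a run of letters in the window, not a measured binding site.

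The 18 libraries held 21053050 to 45410959 counted reads, and 17362 to 20272 genes had at least 1 read. Libraries numbered 1 had the fewest detected genes in each group (17362 to 18896, against 19185 to 20272 for numbers 2 and 3). The table carried no molecular identifiers, so reads are not independent molecules. No KO library held as much Ikzf2 as the lowest WT library of its population, with 39.8, 42.0 and 39.3 CPM (reads scaled to a common effective library size) in LT-HSC WT and 11.1, 6.56 and 11.2 in LT-HSC KO. The summed CPM of Cd48 and Flt3 lay at 60.3 to 118 in LT-HSC, 900.1 to 1190 in MPP3 and 3079 to 3921 in MPP4, in the order the sort gates set. Transcripts of mature neutrophils (14 genes such as S100a8 and Camp) summed to 3.86, 78.9 and 243 CPM in LT-HSC WT 1, 2 and 3, against 3.64 to 9.36 in LT-HSC KO. Transcripts of plasma and B cells (11 genes such as Jchain and Igkc) summed to 3214 to 4033 CPM in MPP3 WT 1, WT 2 and KO 1, against 310.3 to 469 in the other 3 MPP3 libraries. In bulk samples such as these, fewer cells of a type and less RNA per cell cannot be told apart.

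The genes spanned a wide range of levels. To compare genes with each other, the authors' size-factor-normalized signal was divided by transcript length in kilobases and averaged over the 18 libraries. On this scale the highest was Lgals3bp at 16341.5, a secreted glycoprotein that binds galectin-3. It was followed by Ifitm3 at 11682, a membrane protein that blocks virus entry by fusion, and by Trim30a at 5599.9, a tripartite motif protein of the mouse. Parp9 at 4857, a protein of the ADP-ribosyltransferase family, and Oasl2 at 4360.2, an oligoadenylate synthetase-like protein, came next. The median of the 37 genes was 1013. The lowest were the dynamin-like antiviral GTPase Mx1 at 63.6, Ifit3 at 59.9 and Mx2 at 22.1, the last annotated as a polymorphic pseudogene. Mx1 had 0 reads in MPP3 KO 1, which allows up to 0.104 CPM at 3 reads, and Mx2 had 0 in MPP3 KO 2, which allows up to 0.114 CPM; these limits cover counting error only. Of the 37 genes, 33 averaged over 10 CPM. The coefficient of variation between replicates of a group had a median of 18.1% over the genes, from 5.30% for Lgals3bp to 67.3% for Mx1.

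Some members resemble other genes, which limits what their counts can say. Most transcript windows of Oas1a (57.6%) and Ifit3 (51.2%), each 50 bases long, also occurred in another gene, Oas1g or Oas1b for the first and Ifit3b for the second. The share was 23.8% for Herc6, 13.6% for Rtp4, 10.0% for Ifitm3 and 6.53% for Trim30a, and 18 genes had no such window. Dtx3l and Parp9 overlap on opposite strands, and Parp9 also overlaps the antisense gene Gm15564. The sources used here do not say how reads with several matches were counted, and reads of genes that overlap on opposite strands cannot be told apart without strand. The values of these genes are uncertain to that extent.

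**Figure D1:**
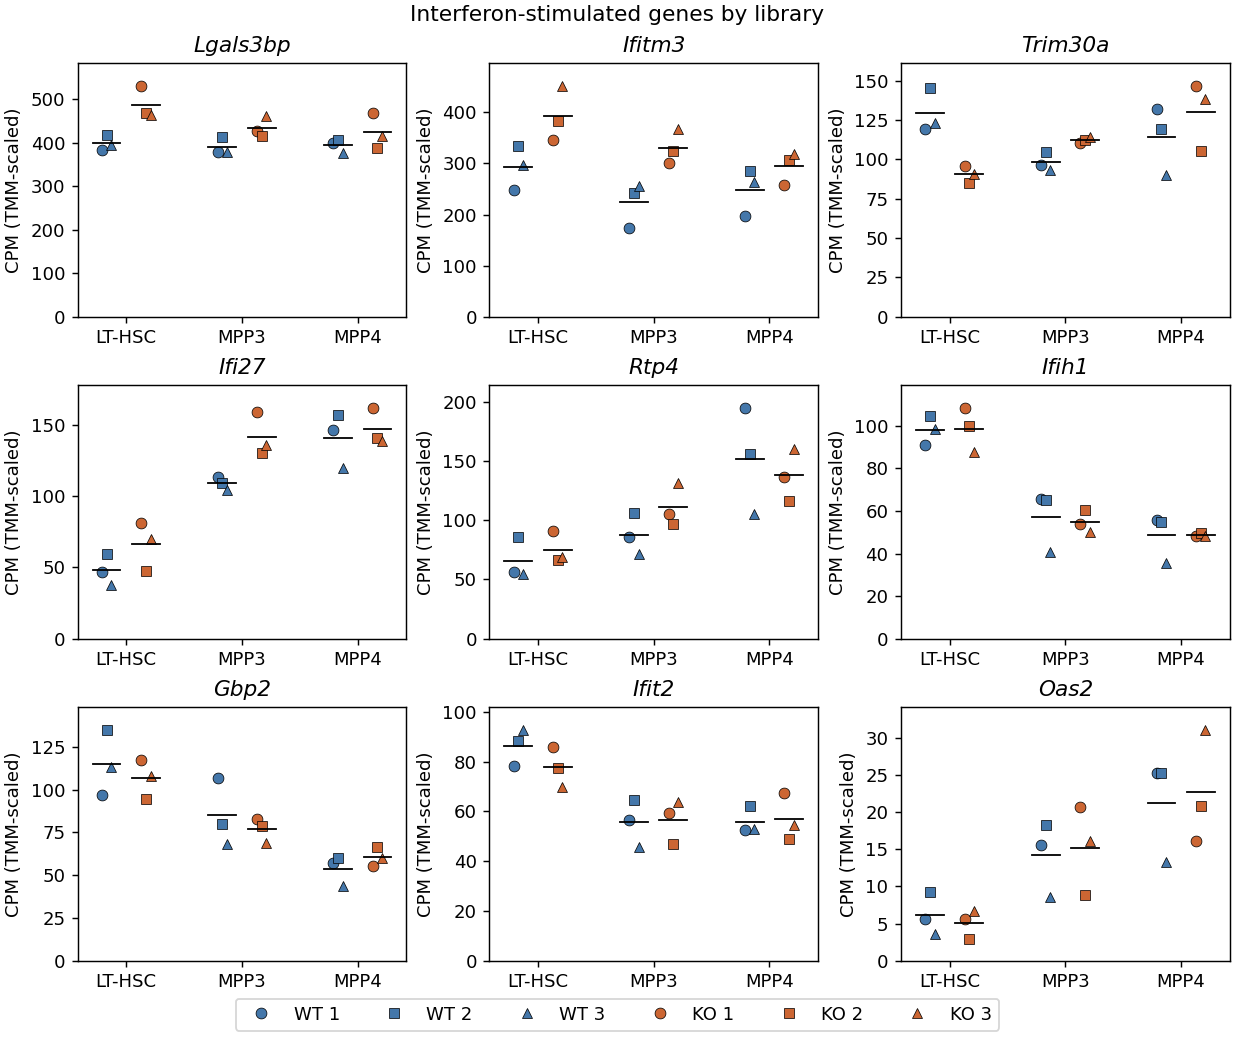
CPM of 9 members in each of the 18 libraries, by population on the x axis; blue is WT, orange is KO, the marker shape is the mouse number and black lines are group means. Trim30a in LT-HSC and Ifitm3 in MPP3 have groups that do not overlap, and WT 3 is the lowest WT mouse for Rtp4 and Oas2 in all 3 populations.

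None of the 37 genes passed the edgeR test between KO and WT cells in any population. By edgeR's quasi-likelihood test on all 16325 genes that passed a filter on low counts, with Benjamini-Hochberg adjustment at 0.05, 0 of the 37 were called in LT-HSC, where 0.0613% of all genes were called. The count was 0 in MPP3 (background 0.00613%) and 0 in MPP4 (background 0.0123%). All 37 had passed the filter. At an unadjusted p under 0.05 the counts were 4 in LT-HSC (10.8%, against 11.2% of all genes), 2 in MPP3 (5.41%, against 4.59%) and 0 in MPP4 (against 4% of all genes). The median log2 fold change of KO over WT was 0.011 in LT-HSC, 0.045 in MPP3 and 0.040 in MPP4, beside 0.015, 0.0045 and 0.0022 over all genes tested. The LT-HSC median was 0.22 without LT-HSC WT 2, the highest of the LT-HSC WT libraries for 26 of the 37 genes (70.3%, against 31.6% of all genes).

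The estimates were moderately precise. Over the 37 genes and 3 populations the standard error of the log2 fold change had a median of 0.22, from 0.085 to 1.25. The estimate lay within 0.5 of 0 on the log2 scale for 32 genes in LT-HSC, 33 in MPP3 and 36 in MPP4. Only Mx1 and Mx2, with the fewest reads, stood at 1 or more in LT-HSC. P-values rest on the spread between the 3 libraries of a group, pooled over all 6 groups and adjusted by the spread of other genes. The main fit treated libraries of the same mouse as independent.

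**Figure D2:**
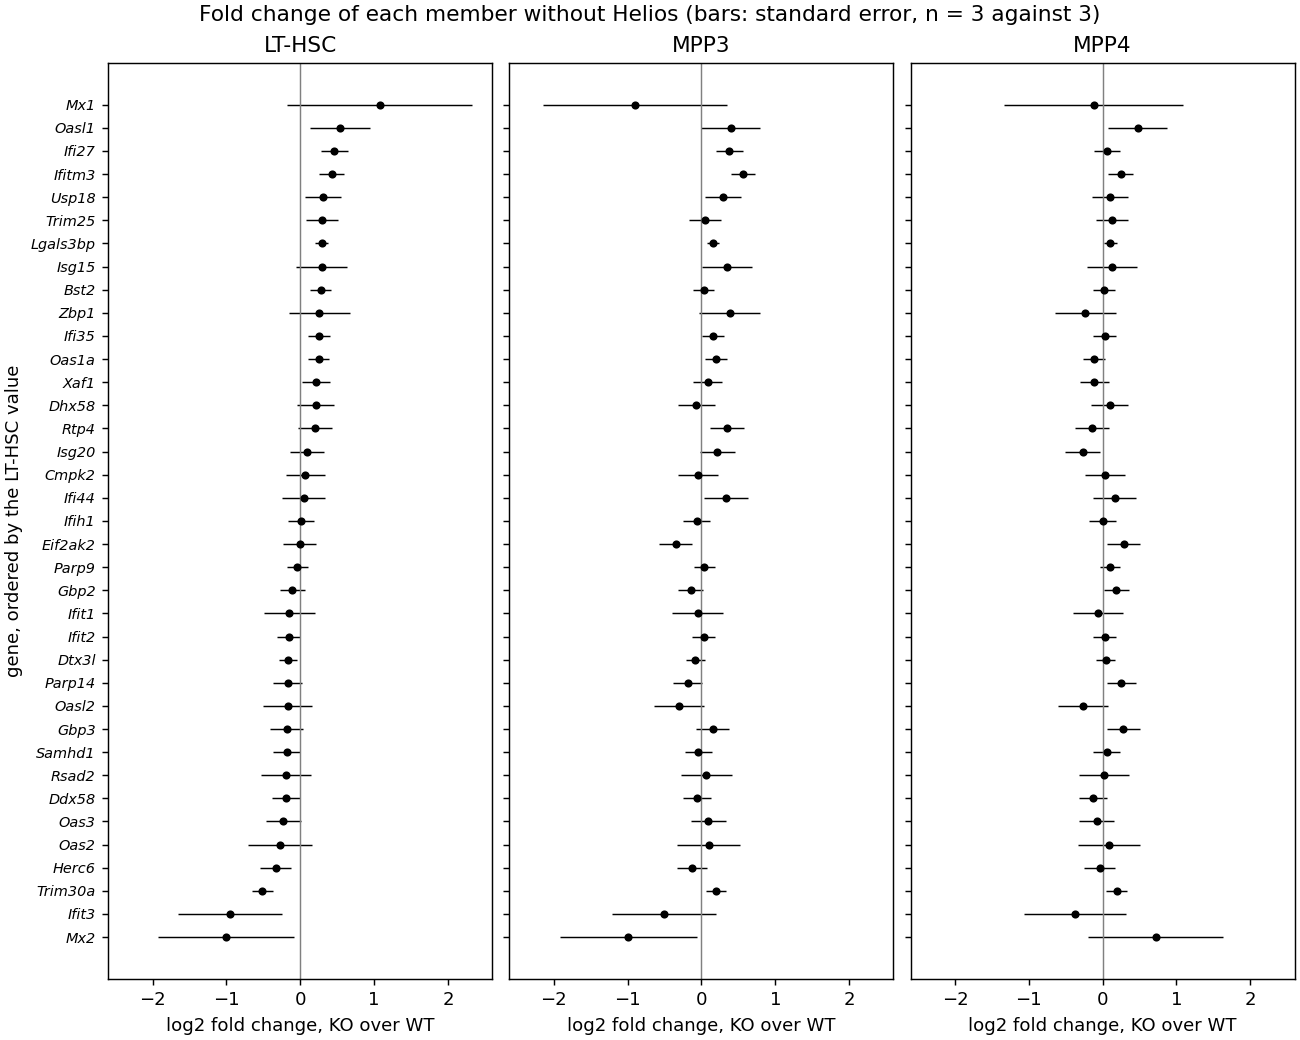
Log2 fold change of KO over WT (x axis) of each of the 37 genes (y axis, ordered by the LT-HSC value) in LT-HSC, MPP3 and MPP4; bars are ± 1 standard error. Of the 37 points, 32 in LT-HSC, 33 in MPP3 and 36 in MPP4 lie within 0.5 of 0, and the longest bars belong to Mx1 and Mx2.

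Among factors of the ISG15 and ubiquitin pathway, Trim30a, known in mouse as an inhibitor of Toll-like receptor signalling to NF-kappaB, came closest to a call. Its level in LT-HSC was 119, 145 and 123 CPM in the 3 WT libraries and 95.9, 85.1 and 90.4 in the 3 KO libraries. Every KO library lay below every WT library. The log2 fold change was -0.51 ± 0.14 (SE, n = 3 per group), with an edgeR adjusted p of 0.227. DESeq2, run as an alternative, gave -0.53 with an adjusted p of 0.0278, and in that fit Trim30a was the only one of the 37 called in LT-HSC (background 1.13%). The authors' deposited table of their own DESeq comparison lists Trim30a at -0.52 with an adjusted p of 0.0236, again the only one of the 37 called there (background 1.64%). Without LT-HSC WT 2 and WT 3, the 2 libraries with neutrophil transcripts, it stood at -0.42 in edgeR with an adjusted p of 0.385; that fit has 1 WT library and takes its spread from the other groups.

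In MPP3 the order of the Trim30a groups was the other way round. The WT libraries held 96.5, 104 and 93.3 CPM and the KO libraries 111, 112 and 114, a log2 fold change of 0.19 ± 0.14 with an edgeR adjusted p of 1. Every KO library lay above every WT library, though by less than in LT-HSC. In MPP4 the groups overlapped, with 132, 119 and 90.2 CPM in WT and 146, 105 and 138 in KO. The difference of the KO effect between MPP3 and LT-HSC was 0.71 ± 0.20 (SE) on the log2 scale, with an unadjusted p of 0.00229 and an edgeR adjusted p of 1. Between MPP4 and LT-HSC it was 0.70 ± 0.20, with an unadjusted p of 0.00241 and an edgeR adjusted p of 0.570. No gene of the 16325 passed the adjusted threshold for any of the 3 such differences in edgeR, so 0 of the 37 did (background 0%); at an unadjusted p under 0.05 the counts were 1 for MPP3 less LT-HSC (background 3.69%), 1 for MPP4 less LT-HSC (background 6.65%) and 0 for MPP4 less MPP3 (background 3.23%).

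Ifitm3, the membrane restriction factor named above, was higher in KO libraries by point estimate in all 3 populations. The LT-HSC libraries held 248, 334 and 297 CPM in WT and 345, 383 and 451 in KO, a log2 fold change of 0.42 ± 0.17 (edgeR adjusted p = 0.361). In MPP3 the WT libraries held 173, 243 and 256 CPM and the KO libraries 301, 324 and 367, a log2 fold change of 0.56 ± 0.17 (edgeR adjusted p = 0.817). The groups did not overlap in either population. In MPP4 they did, with 197, 285 and 264 CPM in WT, 258, 307 and 319 in KO and a log2 fold change of 0.25 ± 0.17 (edgeR adjusted p = 1). In all 6 groups library 1 was the lowest of the 3. Bst2, or tetherin, which holds budding virus at the cell membrane, had LT-HSC values of 49.9, 48.2 and 44.6 CPM in WT and 53.5, 53.8 and 65.3 in KO. Here too the LT-HSC groups did not overlap, with a log2 fold change of 0.27 ± 0.15 (edgeR adjusted p = 0.514).

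Lgals3bp varied least between replicates. Its CPM in LT-HSC was 383, 419 and 394 in WT and 529.8, 468 and 463 in KO, a log2 fold change of 0.29 ± 0.086 (edgeR adjusted p = 0.258). In MPP3 it was 378, 412 and 378 in WT and 427, 414 and 461 in KO, with a log2 fold change of 0.16 ± 0.085. Every KO library lay above every WT library in both populations, narrowly in MPP3. In MPP4 the groups overlapped at 399, 406 and 376 CPM in WT and 469, 387 and 416 in KO.

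Ifi27, a small hydrophobic protein of mitochondria and the nuclear membrane, had the next smallest p-values. In LT-HSC the WT libraries held 47.1, 59.4 and 37.6 CPM and the KO libraries 81.0, 47.7 and 69.6, and KO 2 lay among the WT values. The log2 fold change was 0.46 ± 0.18 (edgeR adjusted p = 0.357). In MPP3 the values were 113, 109 and 105 CPM in WT and 159, 130.1 and 136 in KO without overlap, and the log2 fold change was 0.38 ± 0.18 (edgeR adjusted p = 1). Eif2ak2, the RNA-activated kinase PKR that halts translation, went in opposite directions by point estimate in the progenitors. Its MPP3 values were 47.1, 48.7 and 30.6 CPM in WT and 41.2, 21.7 and 36.6 in KO (-0.35 ± 0.22), and its MPP4 values 44.9, 42.2 and 32.3 in WT and 57.1, 46.4 and 42.3 in KO (0.29 ± 0.22). The groups overlapped in both, and the edgeR adjusted p was 1 in each. Parp14, another ADP-ribosyltransferase, had MPP4 values of 76.5, 92.4 and 85.8 CPM in WT and 86.2, 87.9 and 129.6 in KO, where only KO 3 lay above the WT range (0.25 ± 0.20, edgeR adjusted p = 1).

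Libraries were also compared by order alone. In LT-HSC 4 genes had every KO library above every WT library (Lgals3bp, Ifitm3, Bst2 and Ifi35), where 9.15% of all genes did, and 3 had every KO library below (Trim30a, Herc6 and Mx2), where 6.14% did. In MPP3 the counts were 6 above (Ifitm3, Ifi27, Lgals3bp, Trim30a, Usp18 and Isg15; background 5.01%) and 0 below (background 5.62%). In MPP4 they were 0 and 0 (backgrounds 3.96% and 4.02%). Mouse WT 3 was the lowest of the MPP3 WT libraries in 5 of those 6 genes, all but Ifitm3, and its part in the count was not tested.

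By role, 0 genes of any group were called between genotypes (backgrounds 0.0613% in LT-HSC, 0.00613% in MPP3 and 0.0123% in MPP4). The 6 genes without one shared role (Ifi27, Ifi44, Ifi35, Rtp4, Xaf1 and Lgals3bp) had a point estimate above 0 in 6 of 6 in LT-HSC, 6 of 6 in MPP3 and 4 of 6 in MPP4, with medians of 0.23, 0.25 and 0.044 on the log2 scale. The 7 genes that act on RNA or nucleotides (Ifit1, Ifit2, Ifit3, Isg20, Rsad2, Cmpk2 and Samhd1) had 2, 3 and 4 above 0, with medians of -0.15, -0.043 and 0.015. The 4 sensors of RNA and DNA (Ddx58, Dhx58, Ifih1 and Zbp1) had 3, 1 and 1 above 0. Over all 37 genes 51.4%, 59.5% and 64.9% were above 0, against 51.6%, 50.6% and 50.5% of all genes tested. In the direction of the estimate alone, 10 genes stood above 0 in all 3 populations (Bst2, Ifi27, Ifi35, Ifi44, Ifitm3, Isg15, Lgals3bp, Oasl1, Trim25 and Usp18). Another 5 stood below in all 3 (Ddx58, Herc6, Ifit1, Ifit3 and Oasl2) and 22 were mixed. The share of all genes with the same direction in all 3 is not given, so these counts are description alone. The 3 populations were taken to come from the same mice and are then not independent.

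More of the genes were called between populations than between genotypes. In WT mice, 4 of the 37 genes (10.8%) were called between MPP3 and LT-HSC, against 17.3% of all genes: Ifi27 was higher in MPP3 (background 9.68%), and Ifih1, Ifit2 and Ifi44 were lower (background 7.66%). Between WT MPP4 and LT-HSC 12 genes (32.4%) were called, against 27.2% of all genes. Of these, 9 were higher in MPP4 (Ifi27, Rtp4, Bst2, Oas1a, Oas2, Ifi35, Oasl1, Usp18 and Xaf1; background 14.1%) and 3 lower (Gbp2, Ifih1 and Ifit2; background 13.1%). Between WT MPP4 and WT MPP3 only Gbp2 was called, as lower in MPP4 (2.7%; background 4.81% in either direction and 2.62% lower). The median log2 differences were -0.26, -0.032 and 0.26 in that order, beside -0.0007, -0.013 and -0.010 over all genes. In WT MPP4 over MPP3 the point estimate was above 0 for 33 of the 37 genes (89.2%, against 47.9% of all genes), and in 6 genes every MPP4 library lay above every MPP3 library (background 9.98%). That median was 0.35 without mouse WT 3, described further on. Populations of one genotype were taken to share mice. With the mouse as a block edgeR called 14 genes (background 23.3%), 17 (background 32.4%) and 5 (background 6.31%).

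**Figure D3:**
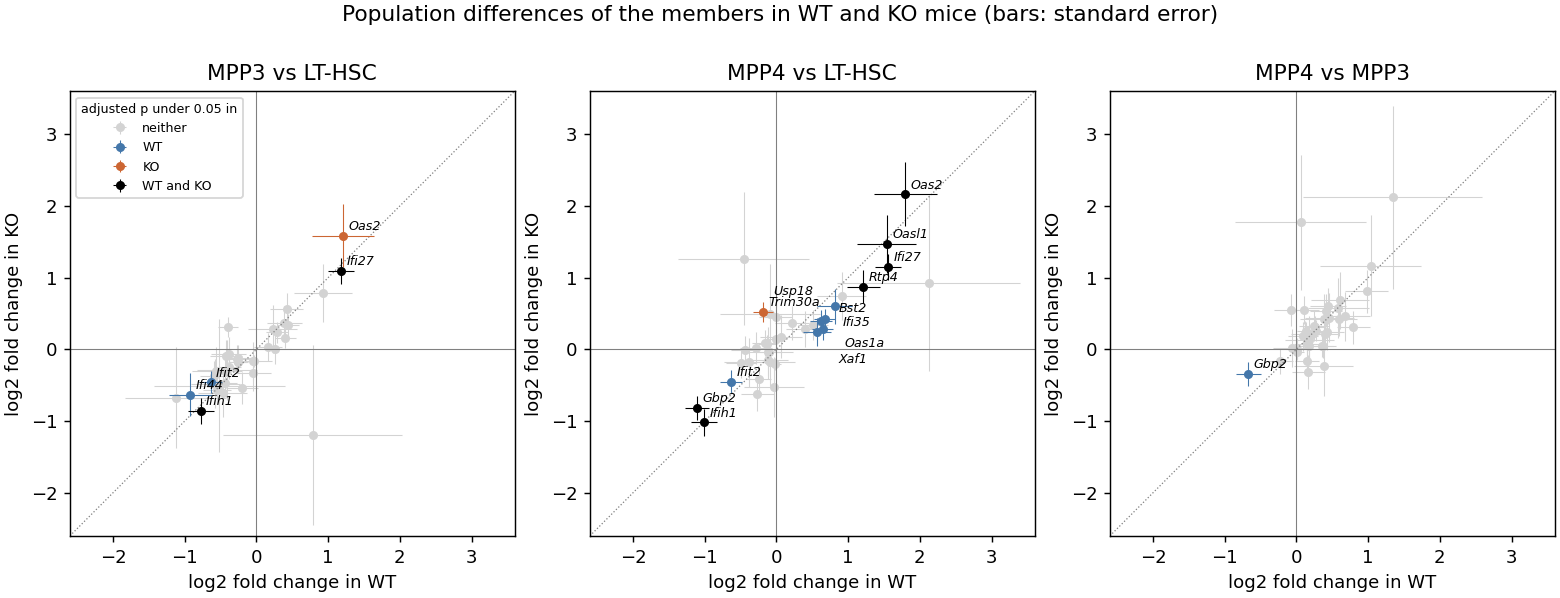
Log2 fold change between populations in WT mice (x axis) and in KO mice (y axis) for the 37 genes, one panel for each pair of populations; bars are ± 1 standard error and colour gives the genotype in which the gene was called. For MPP4 over LT-HSC, Oas2, Ifi27 and Oasl1 lie above 1 in both genotypes, and Ifih1 and Gbp2 are the lowest genes in both.

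The smallest p-values between LT-HSC and either WT progenitor belonged to Ifi27. Its WT level went from 48.0 ± 10.9 CPM in LT-HSC to 109 ± 4.26 in MPP3 and 141 ± 18.9 in MPP4 (mean ± SD, n = 3). MPP3 differed from LT-HSC by 1.18 ± 0.18 on the log2 scale (edgeR adjusted p = 0.000337) and MPP4 by 1.55 ± 0.18 (edgeR adjusted p = 9.54e-06). KO mice gave 1.10 and 1.15, both called. No MPP3 or MPP4 library of either genotype lay as low as any LT-HSC library.

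Rtp4, a protein of the receptor transporter family, was highest in MPP4. WT libraries held 56.4, 85.8 and 54.6 CPM in LT-HSC, 85.5, 106 and 71.6 in MPP3 and 194, 155 and 105 in MPP4. Every MPP4 library lay above every LT-HSC library, with a log2 difference of 1.21 ± 0.23 (edgeR adjusted p = 0.000962), while MPP4 WT 3 lay just below MPP3 WT 2. MPP4 over MPP3 stood at 0.79 ± 0.23 (edgeR adjusted p = 0.0620), and the mouse block called it. In KO mice the values were 90.4, 66.1 and 69.1 CPM in LT-HSC, 105, 96.8 and 131 in MPP3 and 136, 116 and 160.4 in MPP4.

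The oligoadenylate synthetases make the messenger that activates RNase L. Oas1a held 31.1, 28.1 and 28.0 CPM in WT LT-HSC, 34.6, 40.2 and 31.6 in MPP3 and 48.6, 46.8 and 41.0 in MPP4, and MPP4 over LT-HSC was 0.65 ± 0.15 (edgeR adjusted p = 0.00381). The MPP4 and LT-HSC libraries did not overlap. Oas2, chosen for mention after its values were seen, rose from 5.58, 9.30 and 3.58 CPM in WT LT-HSC to 25.3, 25.2 and 13.2 in MPP4, a log2 difference of 1.80 ± 0.44 (edgeR adjusted p = 0.00598). It rose in KO mice as well, from 5.55, 2.94 and 6.73 to 16.1, 20.8 and 31.1 CPM (2.16 ± 0.45, edgeR adjusted p = 0.00201). Oas3 was not called: its WT values were 48.2, 85.1 and 47.1 CPM in LT-HSC, 52.1, 53.0 and 32.9 in MPP3 and 72.8, 85.0 and 51.3 in MPP4, with LT-HSC WT 2 as high as the highest MPP4 library. Of the 6 genes of this family and PKR, 3 were called higher in WT MPP4 than in LT-HSC (background 14.1%). Oasl2 showed wide spread within groups, at 202, 157 and 111 CPM in MPP4 WT and 184, 69.8 and 137 in MPP4 KO, with KO 2 far below the rest.

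Bst2 and Ifi35, a leucine zipper protein that binds NMI, were also higher in MPP4. Bst2 stood at 49.9, 48.2 and 44.6 CPM in WT LT-HSC and 80.3, 74.6 and 72.5 in WT MPP4 (0.67 ± 0.15, edgeR adjusted p = 0.00275), without overlap. Bst2 is also a marker of plasmacytoid dendritic cells, whose list (7 of its 8 genes had a row) summed to 203 to 233 CPM in LT-HSC WT and 333 to 607 in MPP4 WT. Siglech, the defining gene of that list, was at 0 in all LT-HSC libraries and at 5.40, 4.14 and 1.74 CPM in MPP4 WT; the part of such cells in the Bst2 difference was not tested. Ifi35 held 30.9, 29.1 and 31.7 CPM in WT LT-HSC, 41.6, 39.8 and 43.2 in MPP3 and 47.2, 49.6 and 44.2 in MPP4. Its difference from LT-HSC was 0.62 ± 0.15 in MPP4 (edgeR adjusted p = 0.00676), and 0.44 ± 0.15 in MPP3 (edgeR adjusted p = 0.0583).

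Other members went the opposite way and were highest in LT-HSC. Ifih1 encodes MDA5, the sensor of long double-stranded RNA. Its WT values were 91.0, 105 and 98.3 CPM in LT-HSC, 65.8, 65.0 and 40.9 in MPP3 and 55.9, 54.9 and 35.4 in MPP4. MPP3 differed from LT-HSC by -0.78 ± 0.18 on the log2 scale (edgeR adjusted p = 0.00805) and MPP4 by -1.01 ± 0.18 (edgeR adjusted p = 0.000608). KO mice gave -0.85 and -1.02, both called, and no progenitor library of either genotype reached the LT-HSC range.

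Ifit2 belongs to the tetratricopeptide repeat proteins that bind RNA and restrain translation. Its WT values were 78.3, 88.3 and 92.7 CPM in LT-HSC, 56.6, 64.5 and 45.7 in MPP3 and 52.4, 62.2 and 52.7 in MPP4, with no overlap between LT-HSC and either progenitor. The differences were -0.64 ± 0.16 (edgeR adjusted p = 0.0112) and -0.63 ± 0.16 (edgeR adjusted p = 0.00693). Without MPP3 WT 3 the first was -0.51 with an adjusted p of 0.0685. All 7 genes of its role group were below 0 in WT MPP3 and in WT MPP4 relative to LT-HSC, where 49.7% and 48.9% of all genes were above 0. In each comparison 1 of them was called, Ifit2 (backgrounds 7.66% and 13.1% called lower). In KO mice 0 of the 7 were above 0 in MPP3 and 2 in MPP4, and 0 were called in either (backgrounds 13.7% and 20.1%).

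Gbp2, a guanylate-binding GTPase that attacks the membranes around intracellular pathogens, was lowest in MPP4. WT libraries held 96.9, 135 and 113 CPM in LT-HSC, 107, 79.7 and 68.3 in MPP3 and 56.9, 59.8 and 43.6 in MPP4. MPP4 lay below both without overlap, at -1.11 ± 0.17 from LT-HSC (edgeR adjusted p = 0.000149) and -0.67 ± 0.17 from MPP3 (edgeR adjusted p = 0.0288). The second call was lost when MPP3 WT 1, MPP3 WT 2, MPP4 WT 1 or MPP4 WT 3 was left out, with an adjusted p of 0.0597 to 0.192. KO mice gave an MPP4 over LT-HSC difference of -0.82 ± 0.17, which was called. Ifi44, an interferon-induced cytoplasmic protein, was lowest in MPP3, at 50.7, 63.0 and 34.2 CPM against 78.2, 111 and 91.1 in LT-HSC and 116, 115 and 60.5 in MPP4. Its MPP3 over LT-HSC difference was -0.92 ± 0.30 (edgeR adjusted p = 0.0437), a call lost without any one of the 3 LT-HSC WT libraries, MPP3 WT 1 or MPP3 WT 3, where the adjusted p was 0.0537 to 0.187.

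KO mice, which are different animals, gave fewer calls. Between KO MPP3 and LT-HSC 3 genes were called (8.11%; background 13.7%): Ifi27 and Oas2 higher (background 6.85%) and Ifih1 lower (background 6.82%). Between KO MPP4 and LT-HSC 7 were called (18.9%; background 20.1%): Ifi27, Oas2, Rtp4, Trim30a and Oasl1 higher (background 9.57%) and Ifih1 and Gbp2 lower (background 10.5%). Between KO MPP4 and MPP3 edgeR called 0 (background 5.44%), with 6 at an unadjusted p under 0.05 (background 16.2%); DESeq2 called 0 (background 8.26%) and limma voom 1 (background 8.04%). The KO median for MPP4 over MPP3 was 0.25, with 31 of the 37 genes above 0 (83.8%, against 47.9% of all genes), and in 11 genes every MPP4 library lay above every MPP3 library (background 10.4%). With the mouse as a block the counts were 11 (background 18.9%), 13 (background 24.8%) and 3 (background 7.5%). Calls shared by WT and KO for MPP4 over LT-HSC numbered 6, which is 50% of the WT calls and 85.7% of the KO calls. For MPP3 over LT-HSC they numbered 2, Ifi27 and Ifih1, which is 50% of the WT calls and 66.7% of the KO calls. Trim30a was called in KO mice alone, and the test of that difference is the one given above, with an adjusted p of 0.570.

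**Figure D4:**
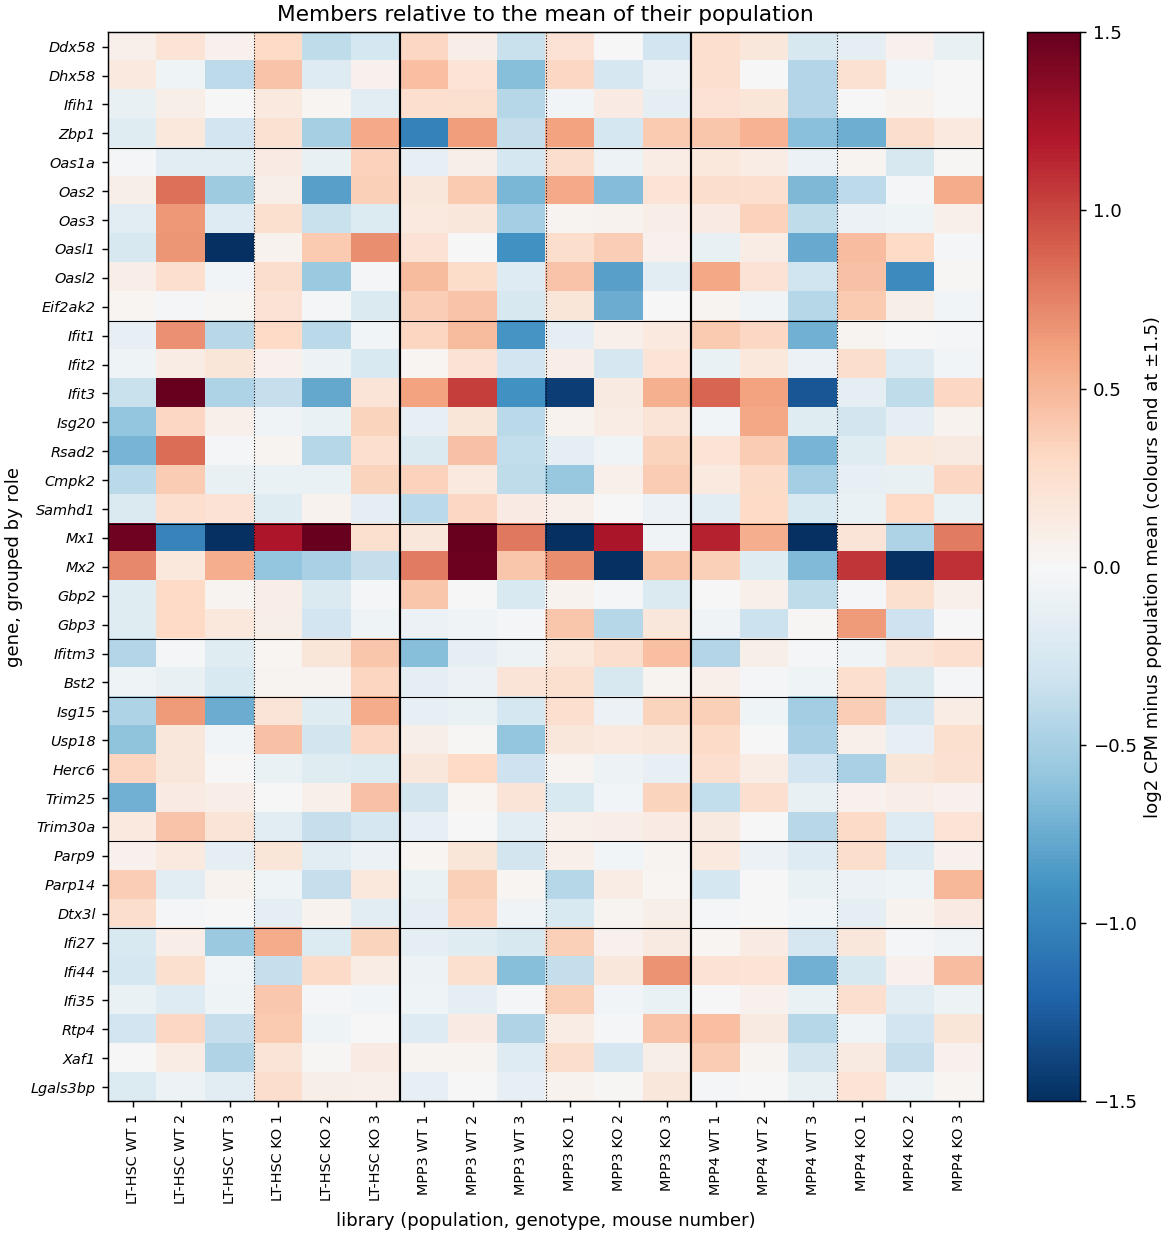
Log2 CPM of the 37 genes (rows, grouped by role) in the 18 libraries (columns), each minus its mean over the 6 libraries of the population, with colours ending at ± 1.5. The columns of WT 3 in MPP3 and MPP4 are mostly below 0, while KO and WT columns show no common shift.

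The WT mice differed among themselves for these genes, WT 3 being low, and WT 2 high in LT-HSC and MPP3. Across the 37 genes, MPP4 of mouse WT 3 lay below the mean of mice WT 1 and WT 2 in 34, with a median log2 difference of -0.48, and below both in 32 (86.5%, against 30.7% of all genes). In MPP3 it lay below their mean in 31, with a median of -0.41, and below both in 27 (73.0%, against 31.5%). In LT-HSC it lay below their mean in 26, with a median of -0.097, and below both in 18 (48.6%, against 27.6%). The 3 exceptions in MPP4 were Parp14, Ifitm3 and Gbp3. Mouse WT 2 lay above the mean of the other WT mice by a median of 0.30 in LT-HSC, 0.32 in MPP3 and 0.19 in MPP4, and was the highest of the 3 for 26, 22 and 16 genes (70.3%, 59.5% and 43.2%, against 31.6%, 33.5% and 30.5% of all genes). In MPP4 mouse WT 1 stood higher than WT 2, at a median of 0.28 above the mean of the other WT mice. There WT 1 was the highest of the 3 for 20 genes (54.1%, against 37.2% of all genes). In LT-HSC the WT 2 shift was larger than that of WT 3, and WT 1 had a median of -0.12 from the other WT mice. These patterns were noticed in the data and concern single mice, so they are given as a description with no test.

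Ifit1 and Irf7, named after their values were seen, show the shift in single libraries, and Ifit1 was shifted by more than the median gene, at -1.28 in MPP3 and -1.06 in MPP4. Ifit1, which binds viral RNA caps, held 48.5, 45.9 and 22.5 CPM in MPP4 WT 1, 2 and 3 and 33.5, 37.2 and 14.5 in MPP3. Irf7, a transcription factor that amplifies interferon signalling and is itself interferon-induced, is outside the 37 and held 115, 90.2 and 41.1 CPM in MPP4 WT and 39.9, 53.7 and 26.2 in MPP3. In each of these 4 groups WT 3 was the lowest library. WT 3 was the lowest of the 3 WT mice in all 3 populations for 15 of the 37 genes (40.5%, against 5.7% of all genes): Ddx58, Dhx58, Herc6, Ifi27, Ifit1, Ifit3, Isg15, Oas1a, Oas2, Oas3, Oasl1, Oasl2, Parp9, Rtp4 and Xaf1. For mice WT 1 and WT 2 the counts were 2 (5.41%, against 8.25% of all genes) and 0 (against 4.25%). Among KO mice, KO 2 was lowest throughout for 9 (24.3%, against 7.22%). The counts for KO 1 and KO 3 were 3 (8.11%, against 10.4%) and 1 (2.7%, against 4.13%).

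**Figure D5:**
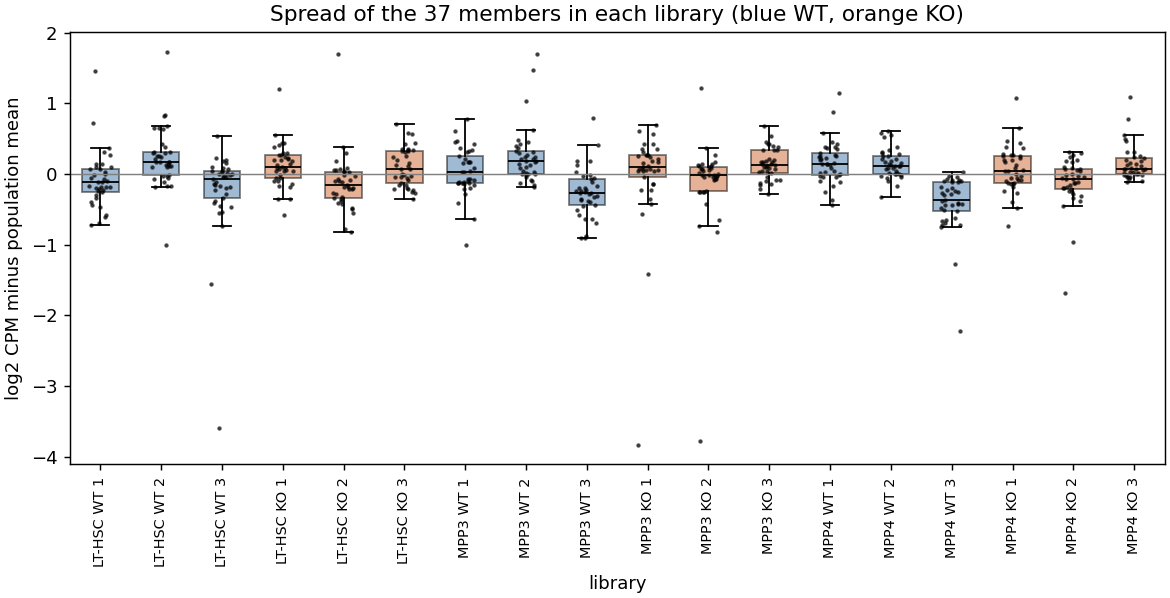
For each library (x axis), the spread of the 37 genes' log2 CPM minus the mean of the population (y axis); boxes give the quartiles and points are genes. WT 3 is the lowest box in MPP3 and MPP4.

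Of 73 other interferon-stimulated genes tested, WT 3 lay below both other WT mice in 24 (32.9%, against 27.6% of all genes) in LT-HSC, 42 (57.5%, against 31.5%) in MPP3 and 41 (56.2%, against 30.7%) in MPP4. The median differences from the mean of the other WT mice were -0.032, -0.15 and -0.22. Of 18 interferon receptors and signal transducers tested, WT 3 lay below both in 10 in LT-HSC, 10 in MPP3 and 12 in MPP4. Their median differences were -0.086, -0.19 and -0.17. Of 12 genes of nucleic acid sensing upstream of interferon, WT 3 lay below both in 6, 2 and 6. Their medians were -0.11, 0.085 and -0.048, so this list was not lower in MPP3. Summed neutrophil transcripts in WT 1, 2 and 3 were 13.4, 53.7 and 62.4 CPM in MPP3 and 5.80, 31.4 and 18.1 CPM in MPP4. WT 3 was thus the highest in LT-HSC and MPP3 and not in MPP4. Plasma and B cell transcripts summed to 3680, 4033 and 469 CPM in MPP3 and 1696, 1442 and 1315 in MPP4. Those of plasmacytoid dendritic cells, Bst2 included, summed to 220, 205 and 189 CPM in MPP3 and 607, 417 and 333 in MPP4. For both lists WT 3 was the lowest in MPP3 and MPP4 and not in LT-HSC. The part of these cell types in the shift was not tested. Genes with and without the paired GAAA motif had median shifts of -0.46 and -0.45 in MPP4 and -0.46 and -0.40 in MPP3. Leaving out all 3 WT 3 libraries, a choice made after seeing the data, gave medians of KO over WT of 0.016 in LT-HSC, -0.077 in MPP3 and -0.071 in MPP4, with 0 genes called in each.

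Upstream and parallel genes of the pathway were also looked at by list. Of 12 interferon ligand genes 1 had a row, Ifnk, at no more than 0.112 CPM in any library. Of the receptors and signal transducers, 0 of the 18 tested were called between KO and WT in any population. Nor were any of the 12 tested genes of nucleic acid sensing upstream of interferon (sensors, adaptors, kinases and nuclease subunits among them) or of the 73 other interferon-stimulated genes. The shares of all genes called were 0.0613% in LT-HSC, 0.00613% in MPP3 and 0.0123% in MPP4. In LT-HSC the smallest p-values of each list belonged to Jak1, a receptor-associated kinase (-0.33), and Socs1, an inhibitor of it (0.80), to the kinase Tbk1 (-0.27) and the nuclease subunit Rnaseh2c (0.39), and to the immunoproteasome subunit Psmb10 (0.50) and Slfn2 of the Schlafen family (0.70). In MPP3 they belonged to Jak1 (-0.23), the phosphatase Ptpn6 (-0.21), the kinases Ikbke (-0.50) and Tbk1 (-0.17), Gbp8 (-1.84) and Ly6e (0.28). In MPP4 those given here belonged to the kinase Tyk2 (-0.31), Ikbke (-0.25), the RNA receptor Tlr3 (-1.73), Slfn2 (0.68) and the GTPase Igtp (0.44). Tlr3 was low there, with means of 0.467 CPM in KO and 1.56 CPM in WT and an SE of 1.15. Values in parentheses are log2 fold changes of KO over WT, and the smallest edgeR adjusted p among them was 0.201, for Psmb10.

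Between WT populations the shares of all genes called higher and lower than in LT-HSC were 9.68% and 7.66% in MPP3 and 14.1% and 13.1% in MPP4. Of the 18 receptors and transducers, 3 were higher and 5 lower in MPP3, and 5 higher and 3 lower in MPP4. The interferon receptor chain Ifnar2 stood 0.91 higher on the log2 scale in MPP3 and 1.63 higher in MPP4; this gene was named after its values were seen. Of the 12 genes of nucleic acid sensing upstream of interferon, 4 were higher and 0 lower in MPP3, and 5 higher and 0 lower in MPP4. In MPP3 the 4 were Tmem173 and the nuclease subunits Rnaseh2a, Rnaseh2b and Rnaseh2c. Tmem173, or STING, the adaptor of DNA sensing, was among the higher genes of both, at 0.77 in MPP3 and 1.65 in MPP4. Of the 73 other interferon-stimulated genes, 9 were higher and 14 lower in MPP3, and 15 higher and 16 lower in MPP4.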

How the data were processed

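RNA of 18 sorted populations was amplified with SMART-Seq v4 and Nextera XT, per the labels' protocols, kits that do not mark strand. The deposited table holds the authors' read counts per gene as whole numbers, a signal normalized by size factors, and, for each population, log2 fold changes and p-values of their KO over WT comparison. Named tools are bcl2fastq 2.17.1.14 and DESeq, with the mm10 build, per the submitters' processing notes; the sources used here do not give the aligner, counter or annotation release. Samples were grouped by sort gate and genotype from the labels.

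The main test was edgeR 4.0.16 (R 4.3.3) on the deposited counts: TMM scaling, filterByExpr (16325 genes kept), 1 quasi-likelihood fit of all 6 groups (common dispersion 0.164) and Benjamini-Hochberg adjustment over all genes at 0.05. SE is the log2 fold change divided by the square root of F. Alternatives were DESeq2 1.42.0, limma 3.58.1 voom, other scaling, no filter, libraries left out and blocks. The test was checked on simulated counts with less spread than these data, so that check does not give its error rates here. Same-numbered libraries of a genotype were taken as 1 mouse from the design; their deviations correlated at 0.041 to 0.182. No 2 libraries held identical counts. Figures were drawn with Python 3.11.15 and matplotlib 3.10.9.

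The genes given per library were those called between KO and WT, the 5 with the smallest p in each KO and each WT population comparison, and the 5 highest per length; of each pathway list, the 2 with the smallest p, of which 1 gene is not reported here. The 37 genes and the lists were chosen with earlier results of these data known.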

Additional observations from a re-analysis of the deposited data

Results flagged for a closer look

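Trim30a stood out because every LT-HSC KO library lay below every LT-HSC WT library while every MPP3 KO library lay above every MPP3 WT library. The KO effect in MPP3 minus that in LT-HSC was 0.71 on the log2 scale, with an edgeR adjusted p of 1, so the difference did not pass the test.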

How the results depend on the processing

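Counts of the 37 genes called between KO and WT stayed at 0 in each population under every alternative, except that DESeq2 called 1 in LT-HSC (1.13% of all genes). No called value changed sign. Counts of called genes between populations were less stable; the share of all genes called under the same setting stands in parentheses. For WT MPP3 over LT-HSC the count of 4 (17.3%) became 7 with DESeq2's size factors (17%), 9 with DESeq2 (21.8%) and 13 with voom (25.5%), and 2 without the WT 3 libraries (7.70%). For WT MPP4 over MPP3 the count of 1 (4.81%) became 3 with no filter (2.69%), DESeq2 (7.28%) or voom (7.12%), and 0 with only the compared groups (6.31%), with libraries numbered 2 and 3 (3.37%), or without WT 3 (2.85%). For KO MPP3 over LT-HSC the count of 3 (13.7%) became 6 with DESeq2 (18.5%), 7 with voom (21.1%), 5 with only the compared groups (14.5%) and 1 with libraries numbered 2 and 3 (9.82%). For KO MPP4 over LT-HSC the count of 7 (20.1%) became 12 with DESeq2 (23.6%) and 15 with voom (25.8%), and for KO MPP4 over MPP3 0 (5.44%) became 1 with voom (8.04%). The cause of these shifts was not tested. Leaving out the MPP3 libraries with plasma cell transcripts gave an MPP3 KO over WT median of 0.28; the WT arm that remains is WT 3 alone, the lowest MPP3 WT library for 27 of the 37 genes, so this value says nothing about plasma cell transcripts.

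Leaving out 1 library at a time gave 2 to 6 calls for WT MPP3 over LT-HSC (2 without MPP3 WT 3), 0 to 2 for WT MPP4 over MPP3 and 4 to 8 for KO MPP4 over LT-HSC (4 without LT-HSC KO 2). Medians near 0 took either sign: they ran from -0.055 to 0.22 for LT-HSC KO over WT, from -0.077 to 0.14 in MPP3, from -0.071 to 0.11 in MPP4 and from -0.092 to 0.12 for WT MPP4 over LT-HSC. The KO MPP4 over MPP3 median ran from 0.20 to 0.34. Among named genes, 16 calls were lost and 14 gained over all alternatives, and 400 values kept their direction and side of the threshold.

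With the mouse as a block, the counts were 14 for WT MPP3 over LT-HSC (23.3%), 5 for WT MPP4 over MPP3 (6.31%), 11 for KO MPP3 over LT-HSC (18.9%), 13 for KO MPP4 over LT-HSC (24.8%) and 3 for KO MPP4 over MPP3 (7.5%). WT and KO libraries share only a number, with correlations of 0.0084 to 0.097 between same-numbered deviations; that number as a block gave 0 calls between KO and WT in each population. Mx2 and Mx1 had the fewest reads, 1001 and 1333 over all libraries.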
